A study of Mus musculus with 8 samples.

Results

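The 9 receptor genes described here encode surface proteins by which haematopoietic stem cells hold on to, and travel to, their bone marrow niche. They are the integrin alpha subunit genes Itga2, Itga4, Itga5, Itga6, Itgal and Itgav, the integrin beta subunit gene Itgb1, the chemokine receptor gene Cxcr4 and the hyaluronan receptor gene Cd44. They were matched by gene symbol, from a list drawn up with earlier results of these data known, and all 9 were found among the 24421 gene symbols of the deposited tables. RNA sequencing had been done on mouse LT-HSCs, the long-term haematopoietic stem cells, which were sorted from bone marrow as lineage-negative, CD117+, Sca1+ cells with high CD150 and low CD48. A GFP reporter of Vwf, the gene of von Willebrand factor, split them into megakaryocyte-biased Vwf+ cells and the remaining Vwf- cells. Both fractions came from wild-type (WT) mice and from Dnmt3a+/- mice, which carry a single intact copy of the DNA methyltransferase gene Dnmt3a, at 10 to 12 months of age. Each of the 4 groups had 2 libraries of 3 to 4 pooled mice, replicate 1 from males and replicate 2 from females. WT and Dnmt3a+/- cells all came from mice with the Vwf reporter, the labels do not describe the altered Dnmt3a allele, and single mice cannot be resolved in a pool.

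Integrins are heterodimers of an alpha and a beta subunit. The beta1 subunit, encoded by Itgb1, pairs with the alpha2, alpha4, alpha5, alpha6 and alphav subunits, among others, and the alpha subunit largely sets the ligand: collagen for alpha2, the endothelial and stromal molecule VCAM1 and fibronectin for alpha4, fibronectin for alpha5, laminin for alpha6, and vitronectin and other matrix proteins for alphav. The alphaL subunit, encoded by Itgal, pairs with beta2 and binds ICAM molecules. CXCR4 responds to the niche chemokine CXCL12 and keeps stem cells in the marrow, and CD44 binds hyaluronan and, in suitably glycosylated form, selectins.

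Total counts ran from 21809278 to 39402418 per library. The sorted fractions were apart in Vwf itself, at 1034 to 1409 CPM (counts scaled to library size and, by TMM, between libraries) in the 4 Vwf+ libraries and 98.9 to 116 CPM in the 4 Vwf- libraries. Dnmt3a stood at 175 to 251 CPM in the WT and 179 to 361 CPM in the Dnmt3a+/- libraries, so it was not lower in libraries labelled Dnmt3a+/-, and a count summed over both alleles cannot tell a lost copy from an intact one. Stem cell markers were abundant: all 10 that were listed, among them Kit, Ly6a, Slamf1, Procr, Mecom, Hlf, Hoxb5, Ctnnal1 and Fgd5, had counts in every library, with a summed level of 2160 to 2822 CPM. The marker lists of erythroid cells, neutrophils, monocytes with macrophages, B cells, and T and NK cells summed to at most 40.5 CPM for any of these lists in any library, and the globin genes Hba-a1, Hbb-bs and Hbb-bt were at 0 throughout.

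The 9 genes spanned a wide range of levels. On the TPM scale, which divides by gene length, Itgb1 was highest with a mean of 142 over the 8 libraries (range 113 to 165). It was followed by Itga6 at 105 (78.6 to 131), Cxcr4 at 72.6 (57.5 to 87.9), Itga5 at 61.3 (40.8 to 78.3), Itga4 at 50.7 (30.5 to 74.0) and Cd44 at 44.3 TPM (30.5 to 54.7). These 6 genes formed a continuous series in which the ranges of each pair of neighbours overlapped, although Itgb1 was above Itga6 in 8 of 8 libraries. Itgav at 14.04 TPM (12.0 to 17.6) lay below all values of Cd44 and above all values of Itgal, which had a mean of 3.34 TPM (0.433 to 6.96). Itga2 was close to Itgal, with a mean of 2.99 TPM (0.948 to 4.78). The deposited TPM values use 1 fixed length per gene, and that of Itga4 was 2.25 times that of Itga5, so the order of this pair is tied to the length used: by scaled counts Itga4 was higher in each library, with a mean of 235 against 128 CPM.

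Vwf+ and Vwf- cells were compared over both genotypes and then within each. Itga6 rose and Itga4 fell in Vwf+ cells, while Itgb1, the shared beta partner of both, and Cxcr4 showed no detectable difference. With sex taken into account, Itga5 also rose and Itga2, Itgal and Cd44 also fell. Of the 9 genes, 2 passed in the model of 4 group means (1 higher, 1 lower), where 5.44% of all 15917 tested genes passed (3.76% higher, 1.68% lower). With replicate number, and hence sex, as a block, 6 passed (2 higher, 4 lower), where 13.4% of all genes passed (7.42% higher, 5.97% lower). In WT cells alone 1 passed, lower, where 1.97% of all genes did (0.496% lower), and 4 with the block (1 higher, 3 lower), where 8.35% did (4.57% higher, 3.78% lower). In Dnmt3a+/- cells alone 0 passed in edgeR, where 1.06% of all genes did. An unadjusted edgeR p under 0.05 was found for 2 (Itga4 and Itga6), against 9.02% of all genes. In these cells DESeq2 called 1 and limma 0, with their counts over all genes given further below. With the block Itga6 alone passed there, higher, where 5.37% of all genes did (3.52% higher, 1.85% lower). The median log2 difference of the 9 genes was −0.12, against −0.01 for all genes tested. In bulk RNA, fewer cells with a transcript and less transcript per cell cannot be told apart.

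**Figure D1:**
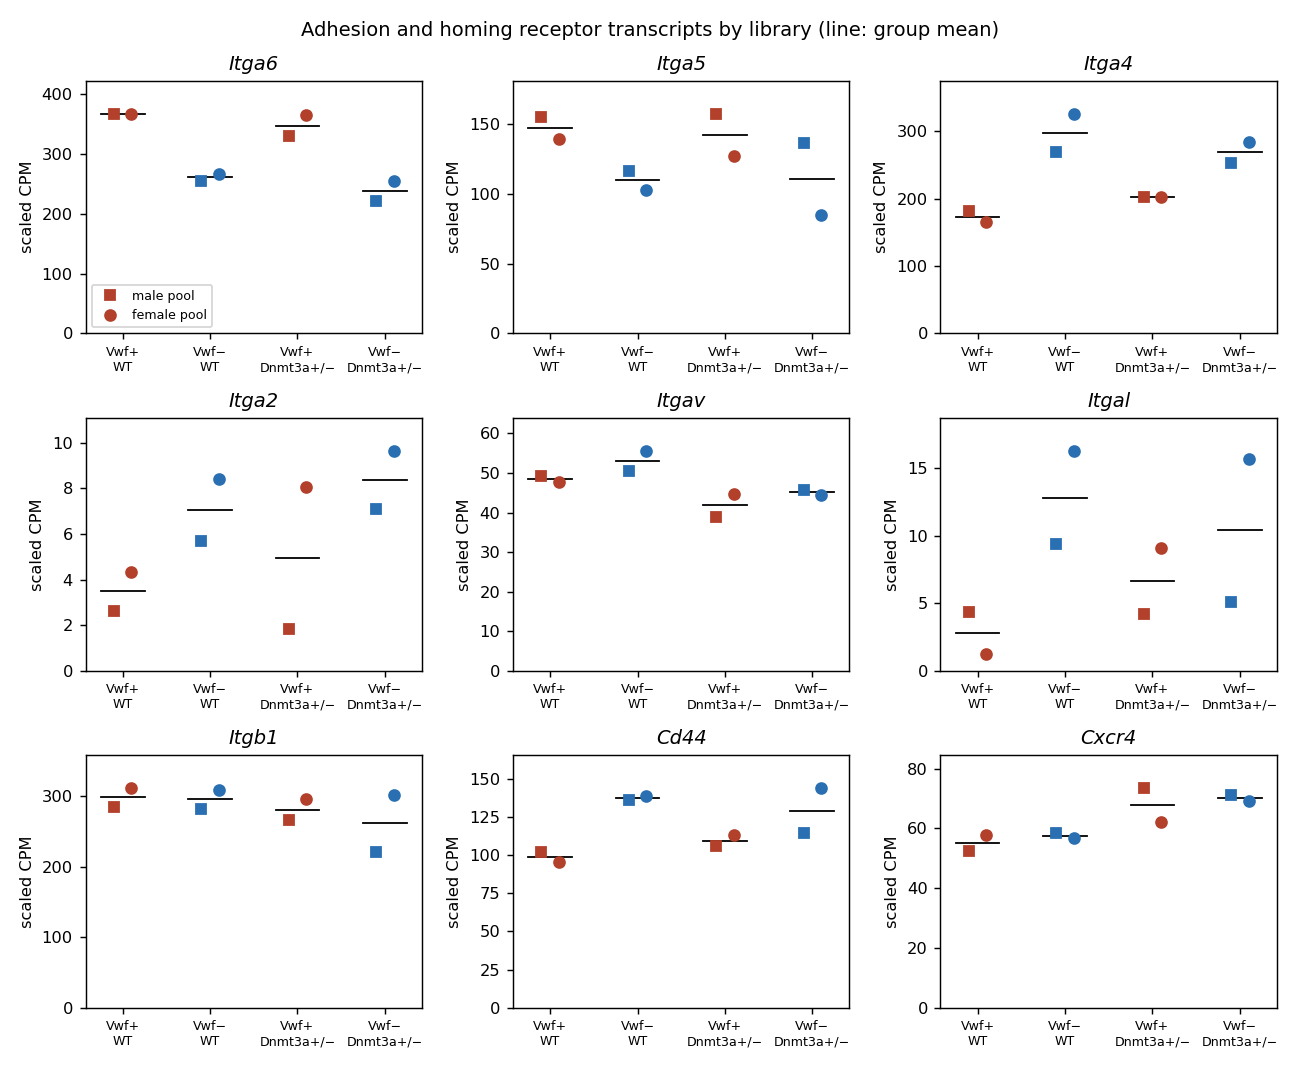
Scaled CPM (y axis, from 0) of each receptor gene in the 4 groups (x axis), with squares for male and circles for female pools, red for Vwf+ and blue for Vwf- libraries, and a line at the mean of each group's 2 libraries. Itga6 lies at 329 to 366 CPM in Vwf+ and 222 to 267 CPM in Vwf- libraries, Itga4 at 166 to 203 and 253 to 325 CPM, and Itgb1 at 221 to 311 CPM with no separation by fraction.

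Itga6 (chromosome 2, 71745616 to 71858416, plus strand, GRCm38) encodes the laminin-binding alpha6 subunit, CD49f. Its Vwf+ values were 366 (WT male), 366 (WT female), 329 (Dnmt3a+/- male) and 364 CPM (Dnmt3a+/- female). Its Vwf- values were 255 (WT male), 267 (WT female), 222 (Dnmt3a+/- male) and 255 CPM (Dnmt3a+/- female). Every Vwf+ library was above every Vwf- library, which was so for 7.71% of all tested genes in this direction. The difference averaged over genotype was 0.52 ± 0.11 on the log2 scale (SE), a 1.43-fold rise (edgeR quasi-likelihood F-test, Benjamini-Hochberg adjusted p = 0.0235, and 0.000561 with the replicate block), and with the block it passed in WT (adjusted p = 0.0246) and in Dnmt3a+/- cells (0.018) as well. Within pools of the same genotype and sex the log2 difference was 0.52, 0.46, 0.57 and 0.52 for WT male, WT female, Dnmt3a+/- male and Dnmt3a+/- female. The call depended on single libraries: leaving out replicate 1 or 2 of Vwf+ WT gave an adjusted p of 0.106 or 0.0933, leaving out replicate 1 or 2 of Vwf- WT gave 0.115 or 0.096, and leaving out replicate 2 of Vwf+ Dnmt3a+/- gave 0.0714. The size of the difference stayed between 0.47 and 0.56 in these and the other omissions.

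Itga4 (chromosome 2, 79255426 to 79333123, plus strand) encodes the alpha4 subunit, CD49d, which with beta1 forms the main VCAM1 receptor of haematopoietic progenitors. In Vwf+ cells male pools had 181 (WT) and 203 (Dnmt3a+/-) and female pools 166 (WT) and 203 CPM (Dnmt3a+/-). In Vwf- cells male pools had 268 (WT) and 253 (Dnmt3a+/-) and female pools 325 (WT) and 284 CPM (Dnmt3a+/-). No Vwf+ library reached the lowest Vwf- library, a separation found for 5.33% of all tested genes in this direction. The log2 difference was −0.59 ± 0.11 (SE), to 0.664 of the Vwf- level (adjusted p = 0.013, and 0.000235 with the block). It passed in WT cells alone, at −0.78 ± 0.16 (adjusted p = 0.039, and 0.00098 with the block). In Dnmt3a+/- cells it was −0.40 ± 0.16 (adjusted p = 0.44, and 0.12 with the block), and the difference between the genotypes did not pass (0.37 ± 0.23, adjusted p = 1). Averaged over genotype, the call was lost without Vwf+ WT replicate 2 (adjusted p = 0.085) and without Vwf- WT replicate 2 (adjusted p = 0.077). The WT call was lost without either WT library of either fraction (adjusted p = 0.084 to 0.44) and without Vwf+ Dnmt3a+/- replicate 2 (adjusted p = 0.051). The 3' end of Itga4 shares 1124 exonic bases with Cerkl on the opposite strand, and whether counting used strand is not known; Cerkl had 77 to 198 counts per library against 3844 to 10840 for Itga4.

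The opposite differences of Itga6 and Itga4 can also be given as a ratio within each library. The ratio of Itga6 to Itga4 TPM, which does not depend on scaling between libraries, ran from 2.65 to 3.61 in Vwf+ libraries (WT male 3.30 and female 3.61, Dnmt3a+/- male 2.65 and female 2.94). In Vwf- libraries it ran from 1.34 to 1.55 (WT male 1.55 and female 1.34, Dnmt3a+/- male 1.43 and female 1.47). All 4 Vwf+ ratios were above all 4 Vwf- ratios. That had to follow, since the TPM values of each gene were already apart between the fractions, in opposite directions. The ratio was computed after the levels had been seen and is given as a description.

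The makeup of the alpha subunits that can pair with beta1 was then compared. Of the 12 such genes in the table, Itga2, Itga4, Itga5, Itga6 and Itgav together held 93.8% to 95.8% of the summed TPM in each library. Itga6 made up 46.8% ± 2.2 of the sum in Vwf+ and 37.9% ± 2.8 in Vwf- libraries (SD, n = 4). Itga4 made up 15.1% ± 1.5 and 26.2% ± 2.3, and Itgav 5.05% ± 0.46 and 6.34% ± 0.38. For each of these 3 genes the Vwf+ and Vwf- libraries did not overlap (exact two-sided permutation test, p = 0.0286, the smallest that 4 against 4 libraries can give, and adjusted p = 0.095 over 10 tests, so that none could be called after adjustment). The shares of a library divide by the same sum and so depend on each other. The level of Itgav itself overlapped between the fractions and did not pass. The permutation test used neither genotype nor replicate number. The share of Itga5 was 26.2% ± 2.5 in Vwf+ and 23.0% ± 4.5 in Vwf- libraries (exact permutation p = 0.29, adjusted p = 0.48), and that of Itga2 was 0.792% ± 0.52 and 1.68% ± 0.41 (exact permutation p = 0.057, adjusted p = 0.14). Between genotypes the adjusted p of the 5 shares ran from 0.48 to 0.89 in the same exact permutation test. Itgb1 itself stood at 0.487 to 0.692 TPM per TPM of the summed alpha subunits.

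**Figure D2:**
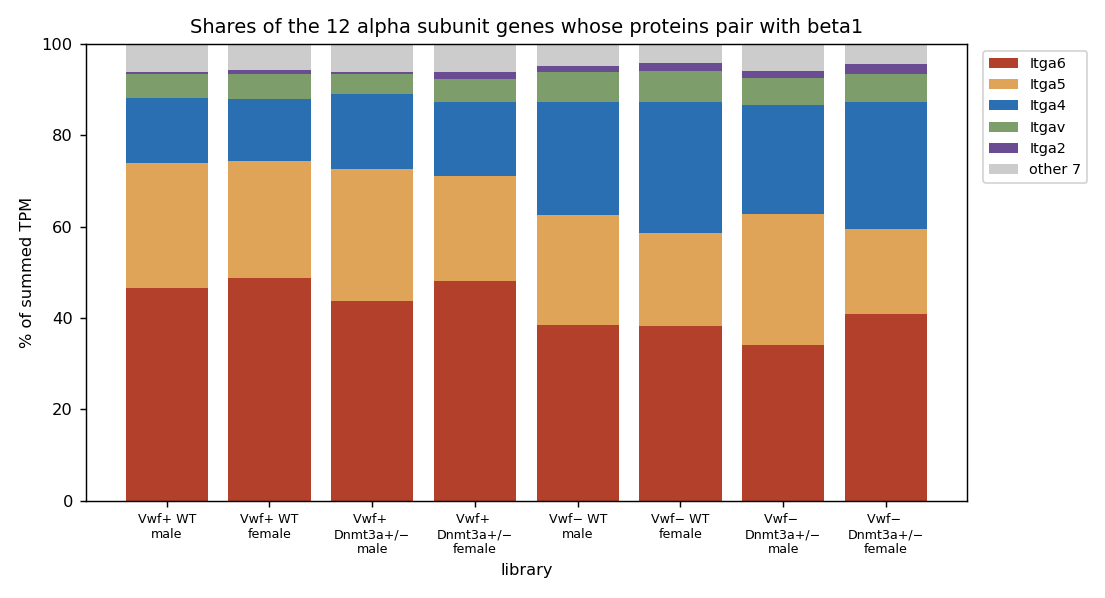
Share of the summed TPM (y axis, 0% to 100%) taken by each alpha subunit gene whose protein pairs with beta1, in each of the 8 libraries (x axis), with Vwf+ libraries on the left and Vwf- libraries on the right. The Itga6 segment takes 43.7% to 48.9% in Vwf+ and 34.0% to 40.8% in Vwf- libraries, and the Itga4 segment 13.5% to 16.5% and 23.7% to 28.6%.

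Itga5 (chromosome 15, 103344286 to 103366763, minus strand) encodes the alpha5 subunit of the classical fibronectin receptor. Vwf+ levels were 155 (WT male), 139 (WT female), 157 (Dnmt3a+/- male) and 127 CPM (Dnmt3a+/- female). Vwf- levels were 116 (WT male), 103 (WT female), 136 (Dnmt3a+/- male) and 85.3 CPM (Dnmt3a+/- female). The groups overlapped, but the Vwf+ pool was higher than the Vwf- pool of the same genotype and sex in 4 of 4 pairs, as for 16.6% of all tested genes. The log2 difference of 0.39 ± 0.15 (SE) passed with the replicate block and not without it (adjusted p = 0.207, and 0.00955 with the block). With single libraries left out it ran from 0.23 without Vwf- Dnmt3a+/- replicate 2 to 0.58 without Vwf- Dnmt3a+/- replicate 1 (adjusted p = 0.388 and 0.0106).

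Cd44 (chromosome 2, 102811141 to 102901665, minus strand) was lower in the Vwf+ pool of every pair, as were 17.6% of all tested genes. Among its Vwf+ libraries male pools had 102 (WT) and 106 (Dnmt3a+/-) and female pools 95.3 (WT) and 113 CPM (Dnmt3a+/-). Among its Vwf- libraries male pools had 136 (WT) and 114 (Dnmt3a+/-) and female pools 138 (WT) and 144 CPM (Dnmt3a+/-). The fractions did not overlap, as for 5.33% of all tested genes in this direction. The gap was narrow, from 113 CPM in the highest Vwf+ to 114 CPM in the lowest Vwf- library. The log2 difference of −0.36 ± 0.11 passed with the block and not without it (adjusted p = 0.094, and 0.017 with the block), and in WT cells alone it was −0.48 ± 0.15 (adjusted p = 0.19, and 0.035 with the block).

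Itgal (chromosome 7, 127296260 to 127335138, plus strand) and Itga2 (chromosome 13, 114833081 to 114932100, minus strand) were the least abundant of the 9 genes and had the widest intervals. Itgal had Vwf+ levels of 4.36 (WT male), 1.25 (WT female), 4.17 (Dnmt3a+/- male) and 9.09 CPM (Dnmt3a+/- female). Its Vwf- levels were 9.38 (WT male), 16.3 (WT female), 5.11 (Dnmt3a+/- male) and 15.7 CPM (Dnmt3a+/- female). The groups overlapped, and the lowest library, Vwf+ WT replicate 2, held 29 counts. Its log2 difference was −1.42 ± 0.46 (adjusted p = 0.13, and 0.012 with the block). Omitting a library moved it between −2.00 (no Vwf+ WT replicate 1) and −0.91 (no Vwf- Dnmt3a+/- replicate 2), and it passed without Vwf- Dnmt3a+/- replicate 1 (−1.71, adjusted p = 0.0126). It was −2.19 ± 0.68 in WT (adjusted p = 0.17, and 0.013 with the block) and −0.64 ± 0.64 in Dnmt3a+/- cells (adjusted p = 0.95), with no call for the difference between genotypes (1.55 ± 0.92, adjusted p = 1). The WT value was −3.37 without Vwf+ WT replicate 1 and −1.55 without Vwf+ WT replicate 2, and it passed without Vwf- Dnmt3a+/- replicate 1 or 2 (adjusted p = 0.03 and 0.0437). For Itga2, Vwf+ male pools had 2.61 (WT) and 1.84 (Dnmt3a+/-) and female pools 4.35 (WT) and 8.07 CPM (Dnmt3a+/-). Its Vwf- male pools had 5.70 (WT) and 7.12 (Dnmt3a+/-) and female pools 8.41 (WT) and 9.64 CPM (Dnmt3a+/-). The groups overlapped. Itga2 was lower in the Vwf+ pool in 4 of 4 pairs, as were Itgal, Itga4 and Cd44 and 17.6% of all tested genes, and its log2 difference of −0.88 ± 0.41 likewise passed with the block and not without it (adjusted p = 0.31, and 0.016 with the block). It was −0.54 without Vwf+ Dnmt3a+/- replicate 1 and −1.60 without Vwf+ Dnmt3a+/- replicate 2 (adjusted p = 0.495 and 0.0234).

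The remaining receptors did not pass with or without the block. Itgb1 (chromosome 8, 128685654 to 128733200, plus strand) had Vwf+ levels of 285 (WT male), 311 (WT female), 266 (Dnmt3a+/- male) and 295 CPM (Dnmt3a+/- female). Its Vwf- levels were 281 (WT male), 309 (WT female), 221 (Dnmt3a+/- male) and 301 CPM (Dnmt3a+/- female). The fractions overlapped throughout. Its log2 difference was 0.06, with a 95% interval of −0.23 to 0.34 (adjusted p = 0.89). Cxcr4 (chromosome 1, 128588199 to 128592293, minus strand) had a log2 difference of −0.06 between the fractions, with an interval of −0.29 to 0.17 (adjusted p = 0.86). Itgav (chromosome 2, 83724397 to 83806916, plus strand) had one of −0.12, with an interval of −0.36 to 0.12 (adjusted p = 0.67), over a range of 38.9 to 55.5 CPM. Itgav shares 634 exonic bases with Gm13684 on the opposite strand, which is not among the counted genes.

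**Figure D3:**
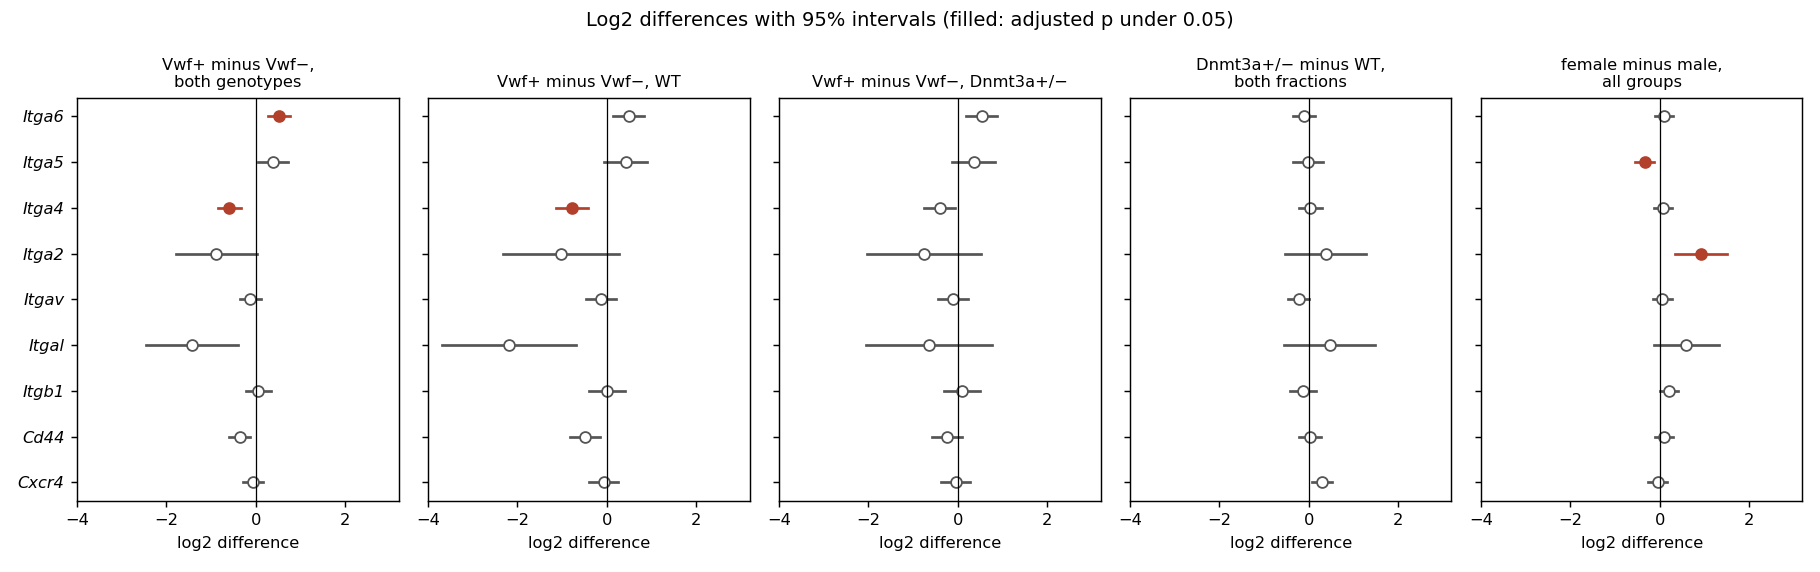
Log2 differences (x axis) with 95% intervals from the edgeR fits for each receptor gene (y axis) in 5 comparisons, with filled red points where the adjusted p was under 0.05. Itga6 at 0.52 and Itga4 at −0.59 are filled between fractions, Itga4 at −0.78 in WT alone, none between genotypes, and Itga2 at 0.93 and Itga5 at −0.33 between sexes.

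Promoters of members on each side of the Vwf comparison are shown, so that the start regions of Itga4 and Cd44, which were lower in Vwf+ cells, can be set beside that of Itga5, which was higher (the calls of Cd44 and Itga5 with the block only). RefSeq windows of 300 bases (GRCm38.p6, 250 before to 50 after the start, 5′ to 3′ along the gene) were at hand for 7 of the 9 genes, without Itga6 and Itgal. Capitals mark the GC box GGGCGG or its reverse complement CCGCCC.
Itga4, chr2:79255176-79255475, plus strand: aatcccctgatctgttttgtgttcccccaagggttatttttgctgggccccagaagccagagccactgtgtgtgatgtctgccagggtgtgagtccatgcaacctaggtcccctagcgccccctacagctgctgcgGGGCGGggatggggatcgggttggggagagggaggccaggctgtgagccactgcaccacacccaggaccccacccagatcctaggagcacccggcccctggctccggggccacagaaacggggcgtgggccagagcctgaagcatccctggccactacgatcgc
Cd44, chr2:102901616-102901915, minus strand: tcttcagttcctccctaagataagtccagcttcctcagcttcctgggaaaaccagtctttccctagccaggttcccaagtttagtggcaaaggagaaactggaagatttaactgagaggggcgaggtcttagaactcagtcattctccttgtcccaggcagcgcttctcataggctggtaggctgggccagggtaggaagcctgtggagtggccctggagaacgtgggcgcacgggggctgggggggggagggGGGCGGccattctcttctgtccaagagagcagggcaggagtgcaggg
Itga5, chr15:103366742-103367041, minus strand: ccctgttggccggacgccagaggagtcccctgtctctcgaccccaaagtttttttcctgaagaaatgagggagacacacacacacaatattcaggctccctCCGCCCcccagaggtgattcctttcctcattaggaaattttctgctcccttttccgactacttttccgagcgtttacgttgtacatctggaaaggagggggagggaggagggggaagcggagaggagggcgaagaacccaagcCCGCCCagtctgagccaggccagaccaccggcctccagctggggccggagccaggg
The GC box was found in each of the 7 windows. It occurred once in Itga4, Cd44, Itga2, Itgav and Itgb1, at 2 places in Itga5 and at 3 in Cxcr4. Of all 32851 windows of this length, 35.7% held it on either strand. CG dinucleotides numbered 10 in Itga4, 6 in Cd44 and 13 in Itga5, against a median of 7 over all windows. Among the windows not printed, that of Itga2, which fell with the block, had 13, the same as Itga5. Those of Itgav, Itgb1 and Cxcr4, which did not pass between the fractions, had 24, 27 and 20. The GATA motif AGATAA (reverse complement TTATCT), present in 11.2% of windows, occurred once in Cd44 and in none of the other 6. The TATA box TATAAA (reverse complement TTTATA), present in 13.6% of windows, was found only in Cxcr4 among the 7, at 2 overlapping places. The ETS motif CCGGAAG (reverse complement CTTCCGG) and the CCAAT box (reverse complement ATTGG), present in 8.86% and 37.4% of windows, were in none of the 7. The E-box CANNTG, which 72.3% of windows held, occurred once in Itga4, at 2 places in Itga5 and in none of the other 5. These matches are a description of letters and not of bound sites.

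Markers of other cells moved with the fractions to different degrees. The T and NK cell list summed to 2.02 to 3.87 CPM in Vwf+ and 7.66 to 8.68 CPM in Vwf- libraries, the same direction as Itga4, Cd44 and Itgal. Nkg7 made up most of that sum, at 1.89 to 3.62 and 7.06 to 8.47 CPM, and it was the single gene of this list with enough counts to be tested, and it fell (log2 difference −1.69 ± 0.27, adjusted p = 0.00547). The defining T cell genes Cd3e, Cd3d and Cd3g were at 0 in 4, 3 and 6 of the 8 libraries and never above 14 counts, and the NK gene Ncr1 was at 0 in 4. Platelet and megakaryocyte markers summed to 83.9 to 175 CPM in Vwf+ and 59.2 to 70.4 CPM in Vwf- libraries, with 3 of 9 tested genes higher and 0 lower (6 and 0 with the block), the same direction as Itga6 and Itga5. Endothelial markers summed to 401 to 502 and 354 to 410 CPM, with 1 of 8 higher, and most of that came from Tie1 and Egfl7, which stem cells also express. Of the B cell list, 3 of 6 genes were tested and 0 passed in edgeR, of the monocyte and macrophage list 0 of 8, and of the erythroid list 0 of 3, while 1 of 6 neutrophil genes and 1 of 8 stromal genes rose. Block counts for these lists were the same, except that 1 stromal gene, Pdgfrb, fell with the block. Of the stem cell markers 5 of 10 rose, and 7 with the block. The part of other cells in the receptor differences was not tested.

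Among the other integrin subunit genes, 17 of 20 listed were tested, 2 rose and 0 fell in Vwf+ cells in the model without the block, and the median log2 difference was 0.25. With the block 3 rose and 1 fell, the added genes being Itga2b (higher) and Itgam (lower), which were named after their values were seen, as were the other genes given below for the block alone. Itgb3, whose product pairs with alphav and with the platelet subunit alphaIIb, rose, with 121 to 177 CPM in Vwf- and 330 to 406 CPM in Vwf+ libraries (log2 difference 1.36 ± 0.12, adjusted p = 0.000199). Itgav, the gene of 1 of its partners, did not pass. Itga3, the gene of another laminin-binding partner of beta1, rose too, with 8.56 to 16.1 CPM in Vwf- and 20.9 to 28.1 CPM in Vwf+ libraries (1.06 ± 0.22, adjusted p = 0.021, and up to 0.0835 when single libraries were left out). The partner genes of alphaL and alpha4 outside the beta1 family were present but not called: Itgb2 stood at 15.8 to 36.3 TPM and Itgb7 at 9.13 to 21.2 TPM over all libraries.

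Genes that activate integrins or tie them to actin had 4 of 27 tested members higher and 1 lower (6 and 2 with the block, adding Vcl and Skap1 above and Tns3 below), with a median of 0.08. Fermt2, which encodes kindlin-2, rose, with 0.390 to 1.02 CPM in Vwf- and 3.38 to 5.17 CPM in Vwf+ libraries (2.66 ± 0.36, adjusted p = 0.00192), whereas Fermt3, the kindlin gene of blood cells, lay at 297 to 444 CPM and did not pass (adjusted p = 0.88). The kinase genes Ptk2 and Ptk2b, which encode FAK and PYK2, rose by 0.64 ± 0.13 and 0.46 ± 0.11, and the GTPase gene Rap1b rose by 0.43 ± 0.10. Parvg, which encodes the parvin of blood cells, fell by 0.78 on the log2 scale, with 104 to 150 CPM in Vwf- and 67.5 to 86.2 CPM in Vwf+ libraries (adjusted p = 0.008). The call of Ptk2 was lost in 3 of 8 omissions of single libraries (adjusted p up to 0.0922), and those of Ptk2b and Rap1b in 7 each, with adjusted p up to 0.19 and 0.254.

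Of the list drawn up as ligands of the 9 receptors, 18 of 20 genes were tested, with 3 higher, 0 lower and a median of 0.0031. Whether the product of each listed gene, Jam3 included, binds a receptor of the 9 was not tested. With the block 5 were higher and 2 lower, adding Fn1 and Lama5 above and the collagen genes Col4a1 and Col4a2 below. Lama4, a laminin chain gene, rose by 1.63 ± 0.22 (3.70 to 5.68 CPM in Vwf- and 12.0 to 18.2 CPM in Vwf+ libraries), the junctional gene Jam3 rose by 1.00 ± 0.17, and Cxcl12 rose by 1.43 ± 0.34. Cxcl12 was low and uneven, with 8.35 to 20.4 CPM in Vwf+ and 2.43 to 7.75 CPM in Vwf- libraries. Its adjusted p was 0.037, and the call was lost in 4 of 8 omissions of a single library (adjusted p up to 0.13). The stromal marker list, which contains Cxcl12, summed to 41.6 to 80.9 CPM in Vwf+ and 33.4 to 60.3 CPM in Vwf- libraries.

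The CXCR4 signalling list had 22 of 26 symbols tested, 1 higher (Cxcl12), 3 lower and a median of −0.07. The block left 1 higher and made 6 lower, adding Grk6, Rgs1 and Dpp4. Lower without the block were Rgs2 and Rgs19, which encode regulators of G protein signalling, and Arrb2, which encodes the receptor-desensitising protein beta-arrestin 2. Rgs2 fell by 1.05, Arrb2 by 0.55 and Rgs19 by 0.43 on the log2 scale (adjusted p = 0.00615, 0.0137 and 0.0311). The Arrb2 call was lost in 3 and the Rgs19 call in 6 of 8 omissions of a single library. Cxcr4 itself was level between the fractions within the interval given above. In the CD44 and hyaluronan list 15 of 18 genes were tested, 1 rose and 0 fell without the block, with a median of −0.11. With it 1 rose and 2 fell, Hmmr and Cd74. The riser was Mmp14, which encodes a membrane protease that can cleave CD44, at 0.96 ± 0.13 (21.6 to 30.6 CPM in Vwf- and 43.2 to 50.6 CPM in Vwf+ libraries, adjusted p = 0.0019).

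Among other homing and adhesion receptors, 8 of 30 tested genes rose and 1 fell (12 and 2 with the block), with a median of 0.21. Beside Neo1, Jam2 and Selp, these included Alcam, an immunoglobulin-family adhesion gene, which rose by 1.25 ± 0.12 on the log2 scale (65.6 to 91.7 CPM in Vwf- and 152 to 202 CPM in Vwf+ libraries, adjusted p = 0.000233). Neo1, Jam2 and Selp rose by 2.97, 2.08 and 1.89. Within WT cells alone, Itgb3, Fermt2, Lama4, Jam3, Neo1, Jam2, Alcam and Mmp14 rose by 1.41, 3.30, 1.48, 1.11, 3.12, 2.26, 1.24 and 1.04 on the log2 scale, and Rgs2 fell by 1.21. Leaving out any of the 4 WT libraries lost the calls of Fermt2, Lama4, Jam3, Mmp14 and Rgs2 (adjusted p up to 0.157, 0.323, 0.359, 0.195 and 0.345), and leaving out Vwf- WT replicate 2 lost that of Alcam (0.0795). Within Dnmt3a+/- cells alone, Itgb3, Lama4, Neo1, Jam2 and Alcam rose by 1.31, 1.77, 2.82, 1.90 and 1.26, and the Lama4 call was lost in 3 of 8 omissions (adjusted p up to 0.118).

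**Figure D4:**
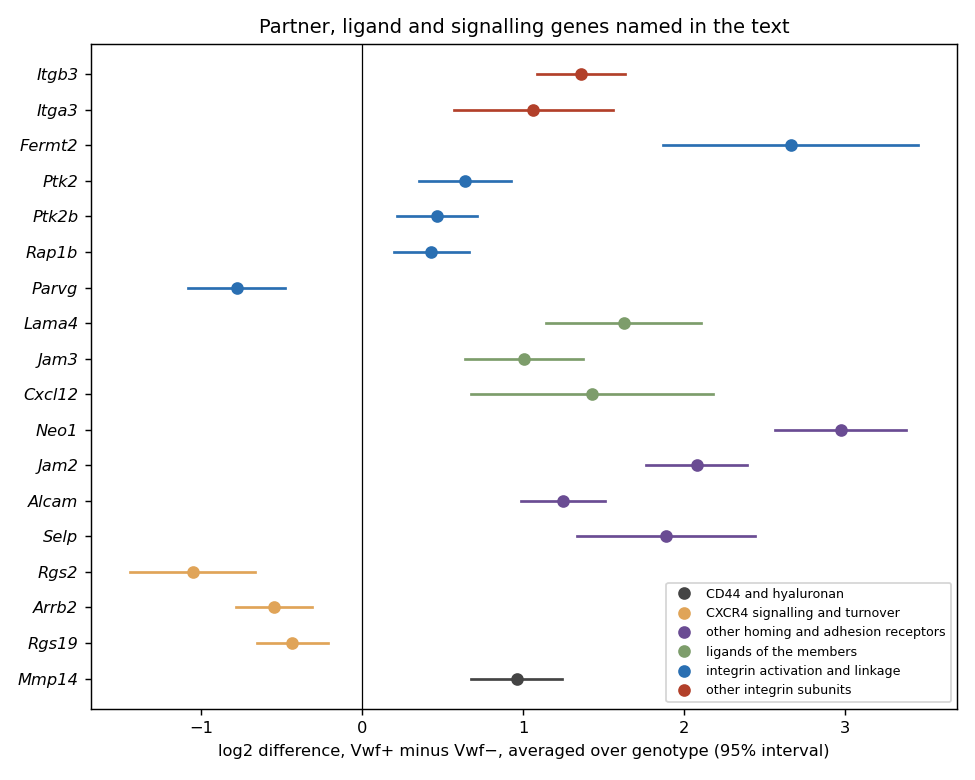
Log2 difference of Vwf+ minus Vwf- cells averaged over genotype (x axis) with its 95% interval, for genes outside the 9 receptors that passed without the block and are named in the text (y axis), coloured by gene list. Fermt2 at 2.66 and Neo1 at 2.97 lie farthest to the right and Rgs2 at −1.05 farthest to the left.

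The genes whose log2 CPM followed the called receptors most closely over the 8 libraries were found among 10650 tested genes of mean log2 CPM over 3. For Itga4 they were Mgat5, Vps18 and Emid1 (Pearson r of 0.989, 0.986 and 0.985), and for Itga6 Mansc1, Eps8 and Sfrp1 (0.993, 0.990 and 0.989). The libraries fall into Vwf+ and Vwf- groups and share depth and scaling, so these values describe likeness over 8 points and carry no test.

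The comparison of Dnmt3a+/- with WT cells asked whether loss of a Dnmt3a copy changed the receptors. None of the 9 genes passed in edgeR averaged over Vwf status, in either fraction, or with the replicate block, where 0% of all genes passed without the block. With it, 0.188% passed averaged over Vwf status (0.101% higher, 0.088% lower), 0.0377% in Vwf+ cells (0.0314% higher, 0.00628% lower) and 0.0126% in Vwf- cells (0.00628% in each direction). Cxcr4 alone had an unadjusted edgeR p under 0.05 in the averaged comparison, against 3.24% of all genes. In each fraction alone 0 of the 9 did, against 2.28% of all genes in Vwf+ and 1.33% in Vwf- cells. DESeq2 and limma also called 0 of the 9. Cxcr4 had Vwf+ levels of 52.3 (WT male), 57.6 (WT female), 73.4 (Dnmt3a+/- male) and 62.2 CPM (Dnmt3a+/- female). Its Vwf- levels were 58.3 (WT male), 56.7 (WT female), 71.0 (Dnmt3a+/- male) and 69.1 CPM (Dnmt3a+/- female). All 4 Dnmt3a+/- libraries were above all 4 WT libraries, a separation that 2.09% of all tested genes showed, 1.24% in this direction. The log2 difference was 0.29 ± 0.10, with a 95% interval of 0.06 to 0.52 (adjusted p = 0.998, and 0.479 with the block). Monocyte and macrophage markers were separated in the same way, at 13.5 to 29.3 CPM in WT and 29.9 to 37.3 CPM in Dnmt3a+/- libraries, with 8 of 8 genes positive and a median log2 difference of 0.65. Neutrophil markers (9.43 to 19.2 and 9.31 to 40.5 CPM) had 6 of 6 genes positive with a median of 1.31, and stromal markers (33.4 to 49.8 and 36.5 to 80.9 CPM) had 8 of 8 positive with a median of 0.59. None of these markers passed in edgeR with or without the block, and their part in the Cxcr4 difference was not tested.

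Itgav was separated in the other direction, at 38.9 to 45.7 CPM in Dnmt3a+/- and 47.7 to 55.5 CPM in WT libraries, as were 0.848% of all tested genes. Its log2 difference was −0.22 ± 0.11, with an interval of −0.46 to 0.01 (adjusted p = 0.998). The intervals of Itga4 (−0.21 to 0.29), Itga6 (−0.35 to 0.14), Itgb1 (−0.42 to 0.15), Itga5 (−0.36 to 0.32) and Cd44 (−0.21 to 0.27) all included 0. For the sparse Itga2 and Itgal they were wider, at −0.53 to 1.29 and −0.55 to 1.48, so a rise of more than 2-fold lay within both intervals. No gene of the 6 pathway lists passed between genotypes in edgeR; 1 gene, Cd74, which belongs to the CD44 list as a partner of CD44, passed with the block, lower in Dnmt3a+/- cells by 0.65 on the log2 scale (adjusted p = 0.00372). The interaction of genotype and Vwf status passed for none of the 9 genes, with 0 at an unadjusted p under 0.05 and 0 in DESeq2 and limma, and for 0 of 15917 genes in edgeR, of which 159 had an unadjusted p under 0.05.

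Male and female pools were compared within the 4 groups. Itga2 rose and Itga5 fell in the female pools, 2 of the 9 genes, where 10.5% of all tested genes passed (5.62% higher and 4.92% lower in female pools). Itga2 was higher in the female pool of each group, at 4.35 against 2.61, 8.41 against 5.70, 8.07 against 1.84 and 9.64 against 7.12 CPM in Vwf+ WT, Vwf- WT, Vwf+ Dnmt3a+/- and Vwf- Dnmt3a+/- cells. The log2 difference was 0.93 ± 0.28 (adjusted p = 0.037), and it was lost without either Vwf+ Dnmt3a+/- library, at 0.57 in both cases (adjusted p = 0.258 and 0.304 without replicates 1 and 2). Itga5 was lower in the female pool of each group, with the values given above, and differed by −0.33 ± 0.10 (adjusted p = 0.045). That call was lost without any of 5 libraries, namely Vwf- WT replicate 1 (adjusted p = 0.073), Vwf+ Dnmt3a+/- replicates 1 and 2 (0.11 and 0.12) and Vwf- Dnmt3a+/- replicates 1 and 2 (0.30 and 0.36). In the last 2 cases the size was −0.22 and −0.21.

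Among the 9 genes, Itgb1 alone had male and female libraries that did not overlap, at 221 to 285 CPM in male and 295 to 311 CPM in female pools (5.35% of all tested genes in this direction). Its log2 difference of 0.22 ± 0.10 did not pass (adjusted p = 0.17). Itga4, Itga6, Itgav, Cxcr4 and Cd44 had 95% intervals within −0.25 to 0.30 between the sexes. Markers of platelets, which carry alpha2 on their surface, and of megakaryocytes summed to 67.1 to 85.0 CPM in male and 59.2 to 175 CPM in female libraries. The sum was higher in the female pool of Vwf+ WT (89.2 against 85.0 CPM) and Vwf+ Dnmt3a+/- cells (175 against 83.9 CPM). It was lower in the female pool of Vwf- WT (68.2 against 70.4 CPM) and Vwf- Dnmt3a+/- cells (59.2 against 67.1 CPM). Itga2 was higher in the female pool of each group. The part of platelets and megakaryocytes in the Itga2 difference was not tested. Sex and replicate number are the same split in this design, so a difference of sex and any other difference between the replicate numbers cannot be told apart.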

How the data were processed

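RNA of sorted mouse LT-HSCs was measured in 8 libraries, made with a low-input total RNA kit per the labels. Tools named in the submitters' processing notes are STAR, featureCounts, Trim Galore and DESeq2, with the build mm10 and no versions or roles; annotation, strand setting and use of molecular identifiers are not given in the sources used here. The authors deposited raw whole-number counts and TPM values per gene symbol. TPM has the same sum in each library and served for levels compared between genes and for an alternative test. It also gave the alpha subunit shares and the Itga6 to Itga4 ratio, which were formed within a library and then compared between groups.

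Counts were fitted in R 4.3.3 with edgeR 4.0.16 (filterByExpr with minimum count 10, TMM, quasi-likelihood F-test, 4 group means, all 8 libraries). Sex was tested with the group means in the model. Benjamini-Hochberg adjustment ran over the 15917 genes that passed the filter, and an adjusted p under 0.05 was called. Standard errors were obtained as the absolute log2 change over sqrt(F). Replicate numbers were taken to pair libraries, since each number has the same sex in every group and the replicate differences correlated across genes in all 6 pairs of groups (r from 0.28 to 0.58, genes not being independent). Values and counts with the block are therefore given where it changes a call of a member or a list's count. Replicates of a group differed beyond counting noise (chi-square per degree of freedom 29.3 to 139). P-values of the fits measure the spread between libraries of a group, which without the block includes the difference between sexes. The block is a term shared by all groups and does not pair the fractions of a genotype. Whether the Vwf+ and Vwf- libraries of a genotype and sex came from the same mice is not known. If they did, the libraries are not all independent. Genotype comparisons over both fractions, separations and permutation tests included, would then rest on fewer pools than libraries.

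Alternatives were the block, DESeq2 1.42.0, RLE scaling, no filter, limma 3.58.1 on log2(TPM + 1) and each library left out. The edgeR code was also run on simulated independent libraries with larger changes than those of Itga6 and Itga4. That run checked the code and not the sensitivity for the differences reported here. The 9 members and the gene lists were chosen with earlier results of these data known. All 9 members were named; of each pathway list, up to 4 passing genes per direction by smallest p, with some listed genes not reported here. Gene positions come from GENCODE M21 (GRCm38, that is mm10), promoters from RefSeq (GRCm38.p6).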

Additional observations from a re-analysis of the deposited data

How the results depend on the processing

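Of 984 single-gene values with 1 library left out, 832 kept direction and side of the threshold, 98 lost and 8 gained a call and 46 changed sign; of 615 under the other settings, the numbers were 539, 52, 16 and 8.  Averaged over genotype, 2 members and 866 genes passed between fractions, 6 and 2132 with the replicate block, 4 and 1418 with DESeq2, 5 and 1649 without a filter, 1 and 563 with limma on TPM, and 0 to 5 and 472 to 1387 with 1 library left out. In WT 1 and 314 passed, against 4 and 1329 with the block, 2 and 731 with DESeq2, 2 and 1059 without a filter, 0 and 103 with limma, and 0 to 2 and 64 to 639 with a library left out. In Dnmt3a+/- cells 0 and 169 passed, against 1 and 855 with the block, 1 and 494 with DESeq2, 633 genes without a filter, 89 with limma, and 75 to 291 with a library left out. Between genotypes 0 genes passed averaged, in Vwf+ and in Vwf-, against 30, 6 and 2 with the block, 16, 5 and 2 with DESeq2, and 61, 53 and 27 without a filter, and 0 to 3 averaged with a library left out. The interaction gave 0, and 24 without a filter. Between sexes 2 members and 1677 genes passed, 0 and 18 on sex alone without group means, 1 member with RLE scaling, 0 and 287 with limma, and 0 to 3 and 713 to 2922 with a library left out. The causes were not tested. Itgal and Itga2 had the lowest counts of the members, at 29 to 542 and 42 to 302 per library.

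Signs that turned belonged to uncalled values. With limma on TPM these were Itgb1 in WT (−0.12), Itga5 between genotypes (0.014 averaged, 0.0798 in Vwf+, −0.051 in Vwf-, interaction 0.13), and Itga6 and Itgb1 between genotypes in Vwf+ (0.0585 and 0.051). With the block it was Itga5 between genotypes in Vwf- (−0.013). With all alpha subunit genes as denominator the genotype difference in share was −0.14 points for Itga4 and −0.58 for Itga5. With a library left out, the log2 difference spanned 0 between fractions averaged over genotype for Itgb1 (−0.0469 to 0.17), Cxcr4 (−0.12 to 0.000634). It did so between fractions in WT for Itgb1 (−0.0566 to 0.0799). It did so between fractions in Dnmt3a+/- cells for Itgal (−1.31 to 0.39), Itgb1 (−0.0935 to 0.34), Cxcr4 (−0.17 to 0.0701). It did so between genotypes averaged over Vwf status for Itga2 (−0.34 to 0.73), Itga4 (−0.0269 to 0.11), Itga5 (−0.21 to 0.12), Itgal (−0.0437 to 1.05), Cd44 (−0.0642 to 0.10). It did so between genotypes in Vwf+ for Itga2 (−0.92 to 1.21), Itga5 (−0.22 to 0.10). It did so between genotypes in Vwf- for Itga2 (−0.00727 to 0.55), Itga5 (−0.38 to 0.30), Itgal (−1.34 to 0.28), Itgb1 (−0.43 to 0.0156), Cd44 (−0.28 to 0.0512). It did so for the interaction for Itga2 (−1.16 to 0.97), Itga5 (−0.35 to 0.33), Itga6 (−0.0225 to 0.17), Itgav (−0.0779 to 0.12), Itgb1 (−0.0931 to 0.34), Cxcr4 (−0.10 to 0.14). It did so between sexes for Cxcr4 (−0.11 to 0.0151), Cd44 (−0.000592 to 0.16). The genotype difference in share spanned 0 for Itga4 (−1.41 to 3.62 points), Itga5 (−0.84 to 2.51 points), Itga6 (−3.56 to 1.10 points).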

Other observations

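Several genes around the receptors differed between female and male pools within the 4 groups, a comparison in which sex and replicate number cannot be told apart. Hmmr, which encodes a further hyaluronan receptor that is also a mitotic protein, rose, with 19.7 to 35.9 CPM in male and 43.1 to 69.9 CPM in female libraries (log2 difference 1.04 ± 0.10, edgeR adjusted p = 4.51e-06). The myeloid integrin gene Itgam rose by 1.04 ± 0.205 and the talin genes Tln2 and Tln1 by 1.21 ± 0.275 and 0.38 ± 0.116 in female pools, and Fermt3 by 0.37 ± 0.097. The collagen gene Col1a2 rose by 1.00 ± 0.165, Mif by 0.51 and Ezr by 0.51, while Itgb4 fell by 0.78, Itga3 by 0.51, the laminin chain gene Lama5 by 0.61 and Cd74 by 0.46 on the log2 scale. Several of these calls rested on single libraries: of 8 omissions, 6 lost Tln1 (adjusted p up to 0.28), 4 lost Fermt3 (0.149), 2 each lost Itgb4 (0.0712) and Itga3 (0.175), and leaving out Vwf- Dnmt3a+/- replicate 2 lost Tln2 (0.0528). The selectin ligand gene Selplg and the selectin gene Selp rose by 0.53 and 0.60. In the CXCR4 list 0 of 22 tested genes rose and 4 fell, including Rgs1 by 0.64, Dpp4, the gene of a protease that cleaves CXCL12, by 0.55 and Rgs18 by 0.44, whose call was lost without either Vwf+ Dnmt3a+/- library (adjusted p = 0.0723 and 0.0815). Cxcr4 itself differed by −0.05 with a 95% interval of −0.25 to 0.16.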
